A study of Homo sapiens with 3 samples.

Results

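Of the 477 genes with a ZNF number as their name that were listed in all 3 libraries of DU145 prostate cancer cells, 336 reached a mean of at least 5 CPM (reads of a gene scaled to a common library total) and are described here. They were selected on their measured CPM, averaged over the 3 libraries. Of the rest, 141 lay under the minimum, 40 of them under 1 CPM, and 3 further ZNF genes were missing from at least 1 library, where none exceeded 0.101 CPM. All 3 libraries together listed 22773 genes, of which 11039 reached 5 CPM. ZNF664 and ZNF267 were chosen as leading genes of the set because the smaller of their 2 ratios to control was the highest.

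DU145 is an androgen-independent human prostate cancer line. The cells had been transfected for 48 h with 75 nM siRNA. The control library came from cells given a control siRNA, and the other libraries from cells given TSPAN18 siRNA 1 or TSPAN18 siRNA 2, which are directed at a tetraspanin membrane protein. Each condition had 1 library, so no ratio here has a replicate and every interval covers counting error only. Ratios are given as descriptions, and fits over all genes appear with the processing.

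Most ZNF genes encode C2H2 zinc finger proteins, in which each finger holds a zinc ion between a pair of cysteines and a pair of histidines and reads a few bases of DNA, so that a row of fingers recognises a longer site. The largest group also carries a KRAB box, which recruits the scaffold protein TRIM28 (KAP1) and, through it, the histone methyltransferase SETDB1 and other silencing factors. Many KRAB zinc finger proteins bind and silence transposable elements, and their genes lie in tandem clusters, most of them on chromosome 19. Other ZNF genes belong to unrelated families that bind RNA, ubiquitin or actin and share only the name.

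The 3 libraries held 30058731, 29913825 and 29766559 read pairs, so that 1 pair was worth 0.0333 to 0.0336 CPM. The target, TSPAN18, was at 16.9, 1.37 and 1.51 CPM in the control, siRNA 1 and siRNA 2 libraries. Epithelial KRT8 (464, 417 and 384 CPM) and KRT18 and the mesenchymal marker VIM (495, 497 and 432 CPM) were abundant, as is known of DU145. Epithelial EPCAM was far lower, at 13.7, 8.59 and 11.1 CPM. The endothelial genes VWF and PECAM1 stayed under 1 CPM. Of the fibroblast genes, COL3A1 also stayed under 1 CPM, but COL1A1 was at 7.25, 3.18 and 5.98 CPM. In both siRNA libraries genes with GC-poor transcripts tended to lie higher relative to control than GC-rich ones: over the genes at 5 CPM other than these ZNF genes, Spearman's rho between transcript GC content and the log2 ratio was -0.433 with siRNA 1 and -0.371 with siRNA 2 (10697 genes, which share the same libraries). ZNF transcripts are on average GC-poor, and values with the GC trend removed are therefore given beside the main ones. The part of this trend in each result was not tested. Fewer expressing cells and less RNA per cell cannot be told apart in these bulk libraries.

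The ZNF genes as a family were slightly more abundant in both TSPAN18 siRNA libraries. Their summed level was 8297, 9183 and 9731 CPM in the control, siRNA 1 and siRNA 2 libraries, or 0.830%, 0.918% and 0.973% of the library. The median gene stood at 13.2, 15.2 and 16.5 CPM. Ratios were taken as log2(CPM + 1), which understates differences of low genes, and both siRNA ratios share the control library. The median log2 ratio was 0.11 with siRNA 1 (SD over genes 0.48) and 0.24 with siRNA 2 (SD 0.42), against -0.08 and 0.00 for the other genes at 5 CPM. With the GC trend removed these medians were 0.12 and 0.18, against 0.02 and -0.01. In all, 187 of the 336 genes (55.7%) were higher than control with both siRNAs, against 30.9% of all genes at 5 CPM, 70 (20.8%) were lower with both, against 37.2%, and 79 were higher with 1 siRNA and lower with the other.

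Large ratios were mostly upward. With siRNA 1, 15 of the 336 genes (4.46%) were at least 2-fold higher, where 0.788% of all genes at 5 CPM were, and 4 (1.19%) were at least 2-fold lower, where 3.8% of all genes were. With siRNA 2 the counts were 14 higher (4.17%, background 1.04%) and 1 lower (0.298%, background 1.18%). At least 2-fold higher with both siRNAs were 8 genes (2.38%, background 0.317%), and none was 2-fold lower with both (background 0.335%). At the smaller threshold of 1.5-fold with both siRNAs, 39 genes (11.6%) were higher, against 2.18% of all genes. Only ZNF296 and ZNF783 (0.595%) were 1.5-fold lower with both, against 2.83%. With the GC trend removed, 30 genes were 1.5-fold higher with both siRNAs, 28 of them among the 39. Of the 8 genes, 6 stayed at 2-fold or more, and the 1.5-fold lower genes numbered 0. The background shares are without GC removal and cover genes selected by the same mean CPM. ZNF765, among the 8, and ZNF813, among the 39, were at 4.62 and 3.09 CPM in the control library. They reached 5 CPM only through their siRNA values, as ZNF296 did through its control value. The same holds for ZNF860, among the 15 with siRNA 1, and ZNF222, among the 14 with siRNA 2. These were at 3.06 and 4.36 CPM in the control library and also passed only through siRNA values. The place of all these genes in the counts follows in part from the selection.

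**Figure D1:**
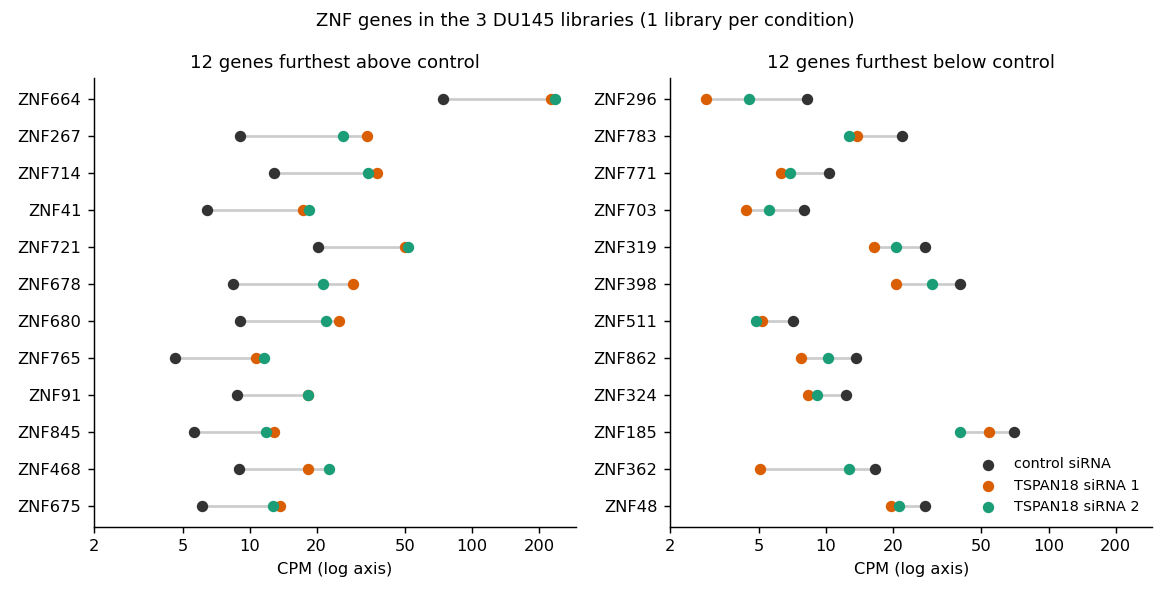
CPM on a log axis in the control, siRNA 1 and siRNA 2 libraries (1 library each) for the 12 ZNF genes with the highest and the 12 with the lowest ratios in both siRNA libraries. ZNF664 runs from 73.6 CPM to 224.7 and 235.1 CPM, while ZNF296 runs from 8.22 down to 2.91 and 4.54 CPM.

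Among the 12 genes highest with both siRNAs, ZNF664 stood far above the rest in abundance. The control library held this C2H2 gene without a KRAB box at 73.6 CPM and the siRNA 1 and siRNA 2 libraries at 224.7 and 235.1 CPM, which is 305.4% of control (95% exact interval 291.0 to 320.6) and 319.4% (304.5 to 335.2). Both siRNA libraries lay close together and about 3-fold above control, and the log2 ratios of 1.60 and 1.66 were 1.69 and 1.66 with the GC trend removed. ZNF267, a KRAB zinc finger gene studied in hepatic stellate cells, was at 9.05, 33.6 and 26.3 CPM in the same order, or 370.9% of control with siRNA 1 (324.1 to 425.7) and 290.3% with siRNA 2 (252.6 to 334.5). Its log2 ratio of 1.78 was the highest of all ZNF genes with siRNA 1.

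ZNF714 was at 12.8, 37.2 and 33.9 CPM, ZNF678 at 8.42, 29.3 and 21.3 CPM and ZNF680 at 9.05, 25.3 and 22.1 CPM. ZNF41, an X-linked KRAB gene that has been linked to intellectual disability, was at 6.42, 17.4 and 18.4 CPM. ZNF721, with 23 finger patterns, was at 20.3, 49.9 and 51.7 CPM; its value is uncertain, since 25.8% of its exonic length overlaps another gene. In each of these 5 genes the siRNA libraries were nearer to each other than either was to control.

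The other 5 of the 12 were ZNF765 (4.62, 10.7 and 11.7 CPM), ZNF91 (8.78, 18.4 and 18.2 CPM), ZNF845 (5.62, 12.8 and 11.9 CPM), ZNF468 (8.95, 18.3 and 22.8 CPM) and ZNF675 (6.12, 13.7 and 12.7 CPM). ZNF91 encodes a repressor of SVA retrotransposons with a long array of fingers. ZNF468 shares 52.0% of its transcript 100-mers with other genes, and 53.3% of its exonic length overlaps another gene. Its value is therefore uncertain, since reads could be split between genes. No annotated exon overlap was found for ZNF91, ZNF845 or ZNF675.

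Of the 11 promoters available for the 12, 9 were placed by reading into families of related sequence. They are shown because they are a feature that the selection on CPM did not use. RefSeq promoters (GRCh38.p14, 250 bases before to 50 after the first listed start of a gene) were available for 287 of the 336 genes and for 11 of these 12. The windows below run from 110 bases before the start to 10 after it, 5′ to 3′ on the strand of the gene, and capitals mark every copy of the long CCAAT box TCCAATCAG on that strand.
ZNF267, chr16:31873697-31873816, plus strand: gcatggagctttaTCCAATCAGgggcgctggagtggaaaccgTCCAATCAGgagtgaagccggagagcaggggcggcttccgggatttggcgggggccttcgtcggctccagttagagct
ZNF714, chr19:21082093-21082212, plus strand: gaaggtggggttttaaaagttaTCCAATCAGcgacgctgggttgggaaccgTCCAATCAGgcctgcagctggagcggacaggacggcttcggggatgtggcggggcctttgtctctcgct
ZNF678, chr1:227563446-227563565, plus strand: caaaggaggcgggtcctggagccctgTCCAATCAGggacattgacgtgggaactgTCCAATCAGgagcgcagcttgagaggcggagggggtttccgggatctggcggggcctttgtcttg
ZNF680, chr7:64563062-64563181, minus strand: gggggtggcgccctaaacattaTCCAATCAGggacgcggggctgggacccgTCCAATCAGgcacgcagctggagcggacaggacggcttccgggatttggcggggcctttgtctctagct
ZNF91, chr19:23395462-23395581, minus strand: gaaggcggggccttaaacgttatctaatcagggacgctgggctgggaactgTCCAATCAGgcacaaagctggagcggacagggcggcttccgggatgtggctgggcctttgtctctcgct
ZNF675, chr19:23687203-23687322, minus strand: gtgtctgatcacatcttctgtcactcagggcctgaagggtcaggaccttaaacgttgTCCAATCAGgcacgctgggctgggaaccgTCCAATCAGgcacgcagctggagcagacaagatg
ZNF267, ZNF714, ZNF678, ZNF680 and ZNF675 hold a pair of copies and ZNF91 a single copy. In ZNF714 and ZNF680 the copies begin 88 and 59 bases before the start, in ZNF267 97 and 68 bases and in ZNF678 84 and 55 bases, a spacing of 29 bases in each.

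The genes lie on chromosomes 1, 7, 16 and 19, so that this arrangement is not limited to neighbours. TCCAATCAG, searched on both strands, was present in 30 of the 287 ZNF promoters (10.5%), in 0.883% of all 27305 RefSeq promoters and in 0.776% of those of the genes at 5 CPM. The letters were chosen after these promoters had been read. Of 17 ZNF promoters at 5 CPM with more than 1 copy, 14 had the first copies 29 bases apart. The 14 include promoters that had been read, those of ZNF267, ZNF714, ZNF678, ZNF680, ZNF675 and ZNF92. This count is therefore a description only. A further 38 of 143 promoters of ZNF genes under 5 CPM or not measured (26.6%) held the box, against 0.644% of the promoters of other genes. Among the ZNF genes at 5 CPM, 29 of the 173 promoters of genes with a KRAB pattern held it (16.8%), as did 1 of 113 without (0.885%).

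The letters came from the promoters of 16 genes that had been picked for high ratios, so those genes are left out here. Of the other 271 ZNF promoters, 23 held the box (8.49%), all of KRAB genes. These 23 had median log2 ratios of 0.45 and 0.40 with siRNA 1 and siRNA 2, and 136 KRAB genes without the box 0.11 and 0.30. The genes with the box have GC-poorer transcripts, at a median of 39.5% GC against 42.4%, and with the GC trend removed the medians were 0.42 and 0.29 against 0.09 and 0.21. With both siRNAs 4 of the 23 and 12 of the 136 were at least 1.5-fold higher, where 2.18% of all genes at 5 CPM were. With the 16 genes included, the medians were 0.53 and 0.58 (29 genes) against 0.11 and 0.31 (144 genes), values that the choice of letters helped to set. The box is a match of letters; binding was not measured.

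A second family of related promoters, also picked by reading them, was seen in ZNF765, ZNF845 and ZNF468 of chromosome 19. Their windows run from 70 bases before the start to 50 after it, and capitals mark the longest run of letters the 3 windows share, 14 bases.
ZNF765, chr19:53395079-53395198, plus strand: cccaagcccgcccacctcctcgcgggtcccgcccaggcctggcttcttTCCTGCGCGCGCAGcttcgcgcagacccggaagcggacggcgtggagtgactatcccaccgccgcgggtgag
ZNF845, chr19:53333679-53333798, plus strand: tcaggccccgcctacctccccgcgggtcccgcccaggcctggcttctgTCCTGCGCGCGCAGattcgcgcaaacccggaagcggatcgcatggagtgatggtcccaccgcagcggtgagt
ZNF468, chr19:52857570-52857689, minus strand: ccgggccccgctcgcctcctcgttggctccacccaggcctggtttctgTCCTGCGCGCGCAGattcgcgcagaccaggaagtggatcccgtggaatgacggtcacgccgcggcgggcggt
ZNF765 and ZNF845 share 65 different 12-mers over their 300-base promoters, ZNF845 and ZNF468 share 31, and ZNF91 and ZNF675 share 54. Over the 11 promoters, 8 of 55 pairs shared at least 20 12-mers (14.5%), against 0.292% of the 41041 pairs of ZNF promoters at 5 CPM. All 8 pairs lie within the families, which had been picked by reading these promoters, so this share is a description only. ZNF267 and ZNF678 reached 20 with no other promoter, sharing at most 16 and 9. The 41041 pairs were not limited to KRAB genes or to genes of the same cluster. The 14-base run was present in 8 of all 27305 promoters, 5 of them of ZNF genes at 5 CPM, the other such genes being ZNF611 and ZNF83. The ZNF664 promoter has neither feature and holds 0 CCAAT and 3 GC boxes, and neither it nor the ZNF41 promoter shared a 12-mer with any other of the 11.

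Of the other motifs searched on both strands, the ETS motif CCGGAAGT was in 20.2% of the ZNF promoters, against 9.82% of those of all genes at 5 CPM, and in 20.6% of the ZNF genes that were 1.5-fold higher with both siRNAs. It was thus about as frequent in those genes as in the ZNF family. The GC box GGGCGG was in 63.1% of ZNF promoters against 72.9%, and CCAAT, which TCCAATCAG contains, in 43.2% against 36.4%. The NRF1 core TGCGCATGC (3.83% against 2.94%), the YY1 motif AAGATGGCG (3.83% against 4.40%), the CRE TGACGTCA (4.18% against 3.48%) and the ATF4 motif TGATGNAA (1.05% against 1.40%) were at shares near the background.

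**Figure D2:**
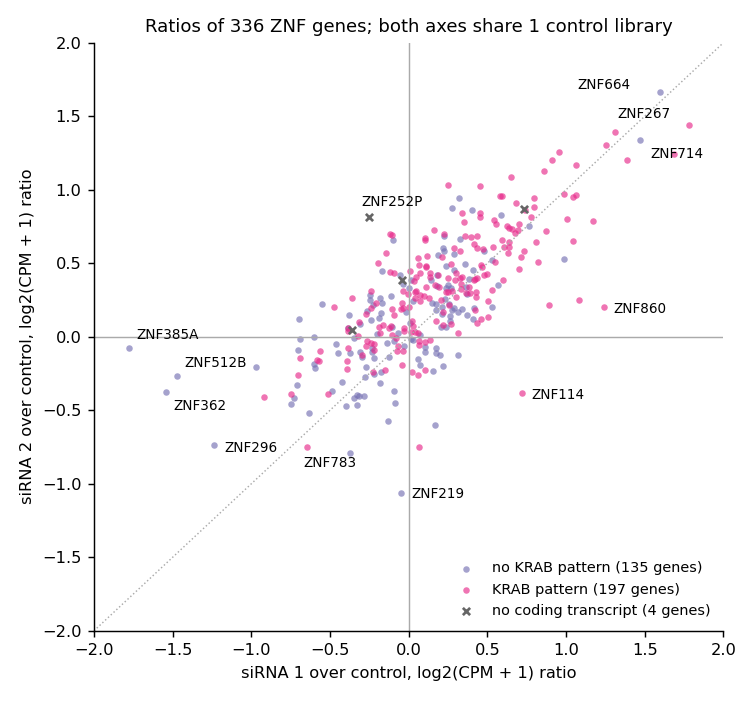
Log2(CPM + 1) ratio to control with siRNA 1 (x axis) and siRNA 2 (y axis) of the 336 ZNF genes, coloured by the presence of a KRAB pattern. Both axes share the control library, so points are drawn towards the diagonal by that library alone. ZNF664, ZNF267 and ZNF714 lie at the upper right, and ZNF385A, ZNF512B and ZNF362 at the left with a ratio near that of control for siRNA 2.

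Among KRAB zinc finger genes, which form the repressor arm of the family, higher values prevailed. A KRAB pattern was found in the protein of 197 genes, and 135 other genes with a coding transcript had none; diverged boxes escape the pattern, as in ZNF263 and ZNF202. KRAB genes summed to 2912, 3429 and 3746 CPM in the control, siRNA 1 and siRNA 2 libraries, whereas the other coding genes summed to 5297, 5652 and 5846 CPM. Median log2 ratios were 0.22 and 0.34 for KRAB genes and -0.01 and 0.11 for the others. At least 1.5-fold higher with both siRNAs were 34 of the 197 (17.3%) and 4 of the 135 (2.96%), against 2.18% of all genes at 5 CPM. The share of the 135 was thus near that of all genes. KRAB transcripts had a median GC content of 42.0% and the others one of 50.01%, and with the GC trend removed the medians were 0.20 and 0.26 against 0.09 and 0.10.

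Within 4 equal classes of transcript GC content (bounds 39.9%, 43.2% and 50.9%), KRAB genes stood above the others with both siRNAs in the 2 GC-poor classes. In the lowest class the medians were 0.39 and 0.49 for 61 KRAB genes and 0.24 and 0.29 for 21 others. In the next class they were 0.29 and 0.48 for 59 KRAB genes and 0.16 and 0.20 for 24 others. In the class above it the KRAB genes were at 0.05 and 0.26 and the others at 0.17 and 0.18, and in the highest class at -0.26 and -0.12 and at -0.24 and -0.09. Over all 336 genes, Spearman's rho between GC content and ratio was -0.578 with siRNA 1 and -0.535 with siRNA 2, given as a description of genes that share 3 libraries.

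**Figure D3:**
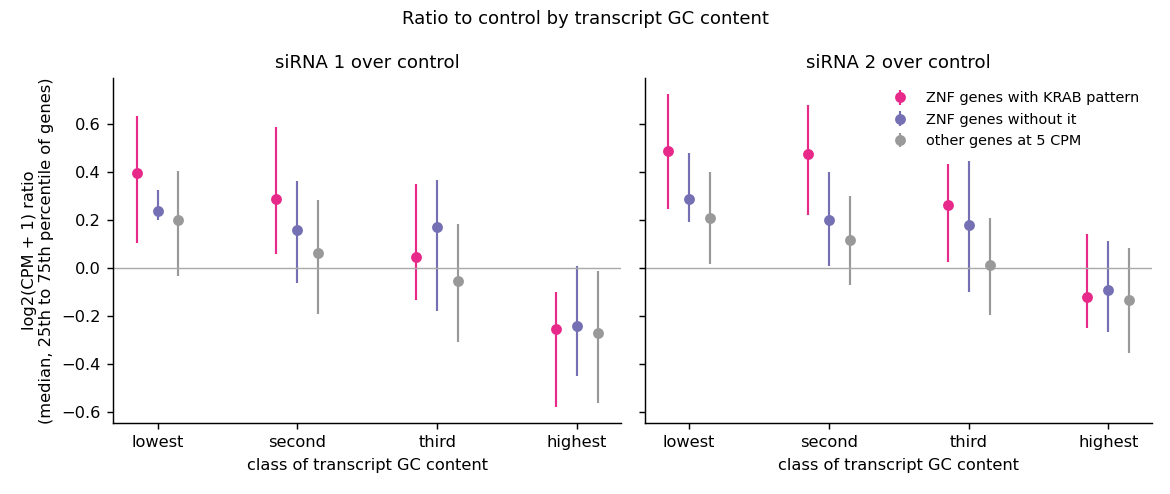
Log2(CPM + 1) ratio to control by class of transcript GC content (4 equal classes of ZNF genes) for ZNF genes with a KRAB pattern, ZNF genes without it and other genes at 5 CPM. Points are medians over genes and bars run over the middle of the distribution of genes, between its lower and upper quartile. All sets fall from the lowest to the highest class, where the medians are at -0.26, -0.24 and -0.27 with siRNA 1.

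Ratios were also higher in proteins with more fingers. Genes with 0 to 5 finger patterns (70) had median log2 ratios of -0.12 and -0.02, those with 6 to 9 (79) 0.07 and 0.18, those with 10 to 13 (95) 0.17 and 0.27, and those with 14 or more (88) 0.33 and 0.41. With the GC trend removed the lowest class was at 0.01 and 0.02 and the highest at 0.30 and 0.30. The 16 genes with a SCAN pattern, a domain through which such proteins pair, were at 0.07 and 0.30. No finger pattern was found in ZNF185, ZNF330, ZNF503, ZNF703, ZNF720, ZNF738, ZNF839 or ZNF862.

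**Figure D4:**
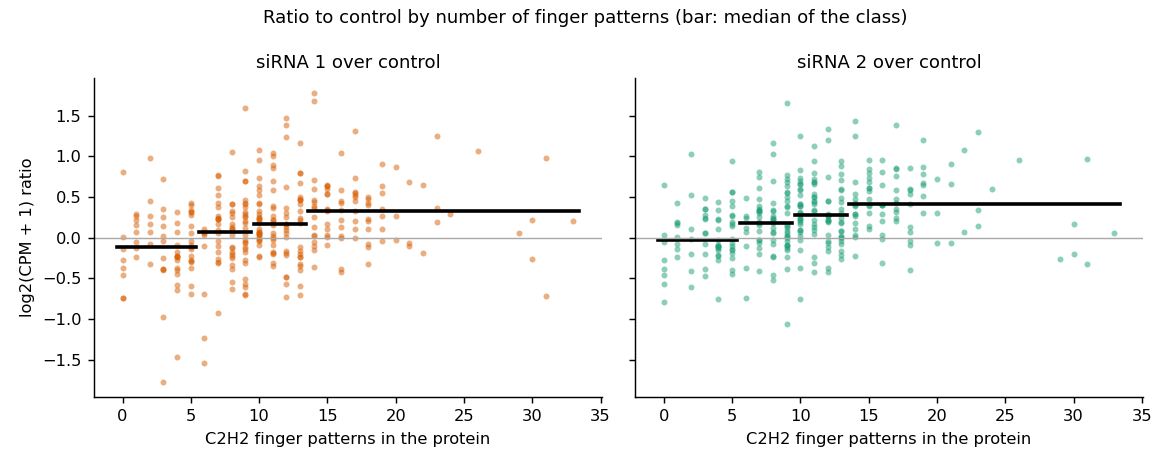
Log2(CPM + 1) ratio to control against the number of C2H2 finger patterns in the protein, 1 point per ZNF gene (332 genes with a coding transcript), with black bars at the median of each class of finger number. The bars step from -0.12 to 0.33 with siRNA 1 and from -0.02 to 0.41 with siRNA 2, within a wide scatter.

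The chromosomal clusters differed among themselves. Genes on chromosome 19 (141) had medians of 0.21 and 0.35 and those elsewhere (195) 0.06 and 0.15. KRAB genes on chromosome 19 (113) had medians of 0.25 and 0.40, against 0.12 and 0.26 off it (84). With the GC trend removed the KRAB medians were 0.21 and 0.27 against 0.19 and 0.17, nearly equal with siRNA 1. Of the KRAB genes, 16.8% on chromosome 19 and 17.9% off it were 1.5-fold higher with both siRNAs, against 2.18% of all genes. Neighbouring ZNF genes were joined into a run where no gap exceeded 1 Mb, and 14 runs held at least 5 of the 336 genes. For comparison, 30.9% of all genes at 5 CPM were higher and 37.2% lower with both siRNAs. Chromosome 7 carries a run at each end of the range. In the run from ZNF736 to ZNF92 all 7 genes were higher than control with both siRNAs, with medians of 1.01 and 0.65. In the run from ZNF786 to ZNF862 none of 10 genes was higher with both and 6 were lower with both, with medians of -0.48 and -0.12. The runs also differ in GC content, at a median of 35.4% and 57.0%, and with the GC trend removed their medians were 0.78 and 0.41 against -0.21 and 0.03.

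In the higher run of chromosome 7, ZNF107 was at 30.4, 63.8 and 48.4 CPM, ZNF92 at 14.1, 29.3 and 25.2 CPM, and ZNF138 at 5.89, 8.42 and 13.03 CPM. ZNF736 (7.62, 9.39 and 8.16 CPM) stood nearest to control. In the lower run ZNF398, whose product binds the oestrogen receptor, was at 39.99, 20.7 and 29.9 CPM, ZNF777 at 47.6, 31.9 and 44.5 CPM and ZNF746 at 62.0, 47.1 and 64.7 CPM. The siRNA 1 values of these last 3 were below both other libraries.

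On chromosome 19 all 11 genes of the run from ZNF101 to ZNF43 and 20 of the 23 from ZNF175 to ZNF331 were higher with both siRNAs, none being lower with both. Their medians were 0.46 and 0.51, and 0.50 and 0.48. With the GC trend removed these were 0.42 and 0.33, and 0.46 and 0.38. Among all genes at 5 CPM, 30.9% were higher with both siRNAs. In the run from ZNF175 to ZNF331, 9 of the 23 genes were 1.5-fold higher with both siRNAs, where 2.18% of all genes were. Among the 9 were ZNF160 (10.6, 20.2 and 18.1 CPM), ZNF766 (7.82, 14.1 and 14.5 CPM) and ZNF761 (7.09, 12.5 and 13.7 CPM). The run from ZNF628 to ZNF324, the one with most genes (37), had medians of 0.00 and 0.27, with 17 genes higher with both and 10 lower. On chromosome 12 all 7 genes from ZNF605 to ZNF268 were higher with both siRNAs, though none reached 1.5-fold with both. Their medians were 0.33 and 0.59, or 0.27 and 0.48 with the GC trend removed. These KRAB genes include ZNF10 (KOX1), the source of the KRAB domain used in synthetic repressors, at 5.59, 6.08 and 9.41 CPM.

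**Figure D5:**
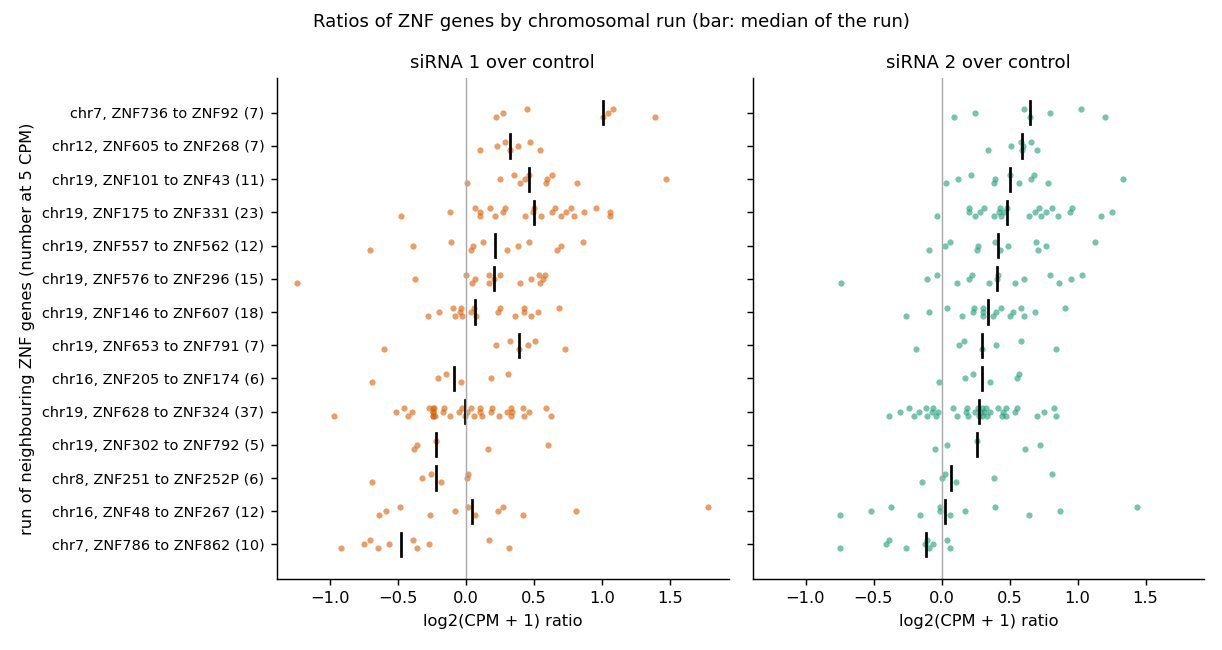
Log2(CPM + 1) ratio to control of the ZNF genes in each of 14 runs of neighbouring ZNF genes, 1 point per gene, with a black bar at the median of the run; runs are ordered by their median with siRNA 2. The top run, on chromosome 7, has medians of 1.01 and 0.65, and the bottom run, on the same chromosome, -0.48 and -0.12.

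The 12 genes lowest with both siRNAs had transcripts of 47.9% to 68.1% GC, and 4 of them (ZNF324, ZNF398, ZNF783 and ZNF862) a KRAB pattern. ZNF296 was at 8.22, 2.91 and 4.54 CPM, or 35.4% of control with siRNA 1 (27.4 to 45.4) and 55.2% with siRNA 2 (44.4 to 68.3). Its transcript is 68.1% GC, and the log2 ratios of -1.24 and -0.74 were -0.73 and -0.48 with the GC trend removed. ZNF783 was at 22.1, 13.7 and 12.7 CPM, and 29.5% of its exonic length overlaps another gene.

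ZNF703, a corepressor gene amplified in some breast cancers, was at 8.02, 4.38 and 5.58 CPM. ZNF185, which encodes a LIM domain protein of the actin cytoskeleton, was at 70.03, 53.8 and 39.98 CPM. ZNF319 (27.9, 16.4 and 20.6 CPM), ZNF771 (10.3, 6.28 and 6.89 CPM) and ZNF48 (27.9, 19.7 and 21.4 CPM) are finger proteins without a KRAB pattern. ZNF511, ZNF862 and ZNF324 were also among the 12 lowest, and each shares more than 20% of its exonic length with another gene.

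The siRNAs differed from each other in a few members. The siRNA 2 value was at least 2-fold above that of siRNA 1 in 4 genes (1.19%, background 2.61%) and at least 2-fold below it in 3 (0.893%, background 1.01%). ZNF385A, whose product binds mRNA and p53, was at 37.9, 10.3 and 35.9 CPM in the control, siRNA 1 and siRNA 2 libraries, a log2 ratio of 1.71 between the siRNAs. ZNF512B was at 81.8, 28.9 and 67.8 CPM and ZNF362 at 16.7, 5.08 and 12.7 CPM. In all 3 genes siRNA 1 was low and siRNA 2 nearer to control. The pseudogene ZNF252P, at 21.6, 17.9 and 38.7 CPM, was instead high with siRNA 2. ZNF550 (6.99, 6.35 and 11.96 CPM) and ZNF32 (8.22, 4.68 and 9.003 CPM) stood next.

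In the opposite direction, ZNF219, a finger protein that acts with SOX9 in cartilage, was at 42.7, 41.3 and 19.9 CPM. ZNF860 was at 3.06, 8.59 and 3.66 CPM and ZNF273 at 5.96, 13.7 and 7.26 CPM, both high with siRNA 1 alone. ZNF860 reached the 5 CPM minimum only through its siRNA 1 value, so that its difference follows in part from the selection. ZNF689 (35.5, 37.3 and 20.7 CPM) and ZNF488 (17.96, 20.3 and 11.5 CPM) were low with siRNA 2 alone. ZNF114 was at 7.15, 12.4 and 5.24 CPM, above control with siRNA 1 and below it with siRNA 2.

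An siRNA can lower transcripts that match its seed in the 3′ UTR, so heptamers were sought whose genes lay lowest in a given library in these same data among 11576 genes that are not ZNF genes. They were TTCACCA and TCACCAA for siRNA 1 and TGGGTCA and GGGTCAA for siRNA 2; the sequences of the siRNAs themselves were not used here. Of 327 ZNF genes with a 3′ UTR, 95 (29.1%) held a siRNA 1 heptamer, against 19.7% of the other genes, and 40 (12.2%) a siRNA 2 heptamer, against 12.4%. The median log2 ratio of siRNA 2 over siRNA 1 was 0.17 in the 95 and 0.10 in the 232 without, and 0.00 in the 40 and 0.12 in the 287 without. Against control, the median siRNA 1 ratio was 0.17 in the 95 and 0.11 in the 232. With the GC trend removed the order changed, to 0.11 and 0.14. The median siRNA 2 ratio was 0.17 in the 40 and 0.25 in the 287, or 0.03 and 0.19 with the trend removed. These shares and medians were not matched for the length of the 3′ UTR. ZNF385A and ZNF550 hold a siRNA 1 heptamer, and ZNF219, ZNF488, ZNF689, ZNF783 and ZNF860 a siRNA 2 heptamer. ZNF468, ZNF714, ZNF765 and ZNF845, among the 12 highest, also hold a siRNA 1 heptamer, as does ZNF511 among the 12 lowest. ZNF512B and ZNF362, low with siRNA 1, hold none, nor do ZNF664 and ZNF267. Whether these sites account for any value was not tested.

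By level, ZNF146 led the family per length. It encodes a protein made almost only of fingers and was at 170.7, 246.5 and 245.7 CPM, a mean of 53.3 CPM per kb of exonic length. ZNF664 had rank 3 per length at a mean of 28.04 CPM per kb and ZNF217, an oncogene amplified in breast cancer, rank 5 at 26.3 CPM per kb. ZNF217 was at 140.1, 187.5 and 160.9 CPM. ZNF207 (BuGZ), which serves the mitotic spindle, was at 171.1, 207.0 and 193.9 CPM, ZNF106, an RNA-binding protein, at 162.7, 193.9 and 207.8 CPM, and ZNF24, a SCAN zinc finger, at 186.8, 165.6 and 218.8 CPM.

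Nearest to control of the genes at 20 CPM or more was ZNF445, a KRAB protein that guards imprinted loci, at 33.3, 34.2 and 34.0 CPM. The next were ZNF510 (24.0, 23.4 and 25.03 CPM), ZNF865 (36.5, 35.7 and 34.9 CPM), ZNF830 (23.7, 24.9 and 23.9 CPM), ZNF408 (21.7, 21.9 and 23.2 CPM) and ZNF518B (31.6, 29.6 and 31.04 CPM). ZNF865 has a transcript of 71.1% GC, and with the GC trend removed its log2 ratios were 0.55 and 0.25 in place of -0.03 and -0.06.

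By role, KRAB proteins with described targets were mostly a little higher, with medians of 0.18 and 0.37 over 16 of 19 listed genes at 5 CPM. ZNF93, a repressor of LINE-1 elements, was at 4.23, 6.05 and 5.88 CPM, and ZNF274, which acts at zinc finger gene clusters themselves, at 41.2, 55.7 and 49.9 CPM. The 25 of 28 listed zinc fingers of promoters, chromatin and corepressors without KRAB had medians of 0.15 and 0.22. ZNF652, a partner of ETO-family corepressors, was at 28.05, 48.3 and 47.9 CPM, and ZNF281, a regulator of stemness genes, at 54.2, 69.6 and 76.7 CPM.

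The 11 of 12 listed ZNF proteins of RNA, translation and ribosome assembly had medians of 0.07 and 0.11. ZNF346, which binds double-stranded RNA, was at 22.3, 18.4 and 19.2 CPM, and ZNF326, of a complex that joins transcription and splicing, at 32.7, 40.2 and 37.5 CPM. Of the ligases, ZNF451, a SUMO ligase, was at 56.6, 67.8 and 66.0 CPM and ZNF598, which marks collided ribosomes with ubiquitin, at 95.9, 81.6 and 90.9 CPM. Beside ZNF41, the genes linked to X-linked intellectual disability ZNF711 and ZNF81 were at 6.39, 7.62 and 10.9 CPM and at 7.29, 7.66 and 6.95 CPM.

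The corepressors and heterochromatin proteins that act with KRAB boxes lay on both sides of control. Of 25 of 27 listed genes at 5 CPM, 11 (44%) were higher and 7 lower with both siRNAs. Among all genes at 5 CPM, 30.9% were higher and 37.2% lower with both. The medians of the 25 were 0.00 and 0.11. TRIM28 was at 401.9, 243.8 and 295.5 CPM in the control, siRNA 1 and siRNA 2 libraries. Its log2 ratios of -0.72 and -0.44 were -0.31 and -0.25 with the GC trend removed. SETDB1 was at 69.4, 67.5 and 58.1 CPM. DNMT3B, a DNA methyltransferase, was at 10.2, 4.01 and 5.11 CPM, whereas FAM208A (TASOR), of the HUSH silencing complex, was at 102.8, 172.8 and 149.1 CPM and HDAC1 at 69.2, 106.2 and 97.4 CPM.

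At the 5 CPM minimum, ZNF548 (mean 5.01 CPM), ZNF860 (5.10) and ZNF653 (5.17) lay just inside and ZNF155 (4.95), ZNF805 (4.92) and ZNF585A (4.92) just outside. The 141 ZNF genes under the minimum had median log2 ratios of 0.00 and 0.18.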

How the data were processed

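RNA from DU145 cells was sequenced as paired-end reads in 3 libraries, grouped by the siRNA in their labels. The build was hg19 and the tools HTSeq 0.6.1, HISAT2 2.1.0 and bcl2fastq 2.19.1, per the submitters' processing notes; the sources do not give annotation release or strand setting. Thus overlapping or antisense genes cannot be told apart. The deposited tables give CPM, made by the authors. In each library 100% of the CPM values were whole numbers of reads (tolerance 0.001 read), and read pairs were recovered from them for exact (Clopper-Pearson, 95%) intervals of ratios and for count tests. PCR copies are not independent molecules.

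Genes and lists were chosen with earlier results of these data known. Named were ZNF664 and ZNF267, the 12 genes highest and lowest with both siRNAs by the smaller ratio, the 6 highest and lowest for siRNA 2 over siRNA 1, the 6 most abundant, the 6 nearest to control, those at the minimum and up to 4 per list; ZNF genes of the chromosomal runs and ZNF274 were added after their values were seen. Fits set both siRNA libraries against the lone control, whose spread is taken from the siRNA pair: limma 3.58.1 called 0 of 14185 genes (691 at an unadjusted p under 0.05), edgeR 4.0.16 called 0 (770) and DESeq2 1.42.0 called 14 (503), at a Benjamini-Hochberg threshold of 0.05. All fits were tested on simulated data. GC content, overlaps, KRAB, SCAN and finger patterns, 3′ UTRs and gene order came from GENCODE 29 (GRCh38), matched by gene identifier (finger pattern: cysteines 2 to 4 residues apart, 12 residues, histidines 3 to 5 apart); as this is not the authors' build, it gives no coordinates. The GC trend was removed with lowess (fraction 0.3). Python 3.11.15, scipy 1.17.1, pandas 2.3.3, statsmodels 0.14.6, numpy 2.4.6, matplotlib 3.10.9 and R 4.3.3 were used. Alternatives were pseudocounts, CPM minimums, scaling, GC removal and leaving out genes with overlaps, shared sequence or pseudogene names.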

Additional observations from a re-analysis of the deposited data

Results flagged for a closer look

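ZNF114, a KRAB zinc finger gene of chromosome 19, was above control with siRNA 1 and below it with siRNA 2, at 7.15, 12.4 and 5.24 CPM in the control, siRNA 1 and siRNA 2 libraries. The log2 ratios were 0.72 and -0.39, and that of siRNA 2 over siRNA 1 was -1.11. The siRNA 1 library held 173.9% of the control value (95% exact interval 146.6 to 206.6) and the siRNA 2 library 73.3% (59.2 to 90.5). The difference was not tested, since each condition had 1 library. Its 3′ UTR holds none of the heptamers.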

How the results depend on the processing

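No paired analysis was possible because each condition had 1 library, and no library could be left out. Median-of-ratios scaling gave a median log2 ratio of 0.22 with siRNA 1, in place of 0.11. This scaling shifts all genes, and the median of the other genes at 5 CPM became 0.03 in place of -0.08. With the GC trend removed the median with siRNA 2 was 0.18, the SDs over genes were 0.41 and 0.37, 9 genes in place of 15 were 2-fold away from control with siRNA 2, and 4 in place of 7 were 2-fold apart between the siRNAs. Genes 1.5-fold lower with both siRNAs then numbered 0, in place of 2. The count between the siRNAs was 12 with a minimum of 1 CPM and 12 with none. The other medians, SDs and counts stayed within 1 SD over genes or 1.5 times under the pseudocounts, minimums and exclusions run. The bound of 1 SD is wide, and the shifts of medians and SDs given above also lie within it. DESeq2 called 14 genes, where limma and edgeR called 0; ZNF664 and ZNF267 were among the 14 and had been chosen for their ratios. Of 110 ratios of 55 named genes, GC removal changed the sign of 11. In 4 of these the counting interval had not spanned the control value: ZNF207 (-0.039) and ZNF326 (-0.042) with siRNA 2, and ZNF598 with siRNA 1 (0.22) and siRNA 2 (0.14). Apart from these 4, GC removal moved 59 ratios beyond counting error, some of them among the 11, such as that of ZNF865 with siRNA 1. The median of KRAB genes minus that of other coding genes was 0.23 with each siRNA and 0.11 and 0.16 with GC removed, a measure chosen after seeing the data. Depth allows 0.0998 to 0.101 CPM for a gene without reads.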
